A study of Mus musculus with 8 samples.

Results

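The genes described here are 49 antiviral interferon-stimulated genes: effectors, sensors and regulators that type I interferon is known to induce. They were chosen by gene symbol for this known role, with earlier results of these data known. All 49 were found among the 55226 genes of the deposited table. A filter on low values (a mean of at least 3 over the 8 samples) left 11543 genes for testing, and all 49 passed it. The cells were bone marrow-derived macrophages (BMDMs) of C57BL/6 mice, grown from hindlimb femur marrow for 7 days with 10% FBS and 10 ng/ml of the macrophage growth factor M-CSF. The donor mice were PtipWT (WT) or PtipcKO (cKO), a wildtype and a conditional knockout of PTIP, which is encoded by Paxip1 and is a subunit of a complex that methylates histone H3. Every culture was listed with LPS, a component of the bacterial outer membrane, at 100 ng/ml for 0 or 6 h, so the 4 groups were WT at 0 h, WT after LPS, cKO at 0 h and cKO after LPS, with 2 samples each. The Cre driver and the deleted exons were not given in the sources used here. The series text calls the 2 samples of a group biological replicates but does not tie a number to a mouse. P-values therefore reflect only how far these samples spread, which may be technical. In such bulk samples, fewer cells of a type and less RNA per cell cannot be told apart.

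LPS is sensed by TLR4, which through the adaptor TRIF (Ticam1) and the kinase TBK1 activates the transcription factor IRF3 and so the gene of interferon-β, Ifnb1. The secreted interferon binds its receptor (Ifnar1 and Ifnar2), whose kinases JAK1 and TYK2 activate STAT2. STAT2 and IRF9 are part of a complex that binds the interferon-stimulated response element (ISRE) in the promoters of antiviral genes. Their products sense viral nucleic acid, cut or edit it, block its translation, or stop viruses at membranes, and in macrophages they are induced by LPS without any virus.

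RefSeq promoter windows (mouse build GRCm38.p6, 250 bases before to 50 after a start site) were at hand for 37 of the 49 genes. They were not at hand for Mx1, Mx2, Oas2, Usp18, Ifi204, Ifi27, Dhx58, Rtp4, Zbp1, Parp9, Parp14 and Tor3a. The ISRE was searched on both strands as TTTC, any 2 bases and TTTC again, or the complement GAAA, any 2 bases and GAAA, with overlapping matches counted. It was found in 20 of the 47 windows of these genes (42.6%, in 19 of the 37 genes), against 1131 of all 32851 windows (3.44%). The 8 stretches below lie upstream of the start site and are examples, since other genes such as Ifi205 and Stat2 also held upstream matches. Each reads 5′ to 3′ on the gene's own strand, and capitals mark the ISRE letters:
Isg15: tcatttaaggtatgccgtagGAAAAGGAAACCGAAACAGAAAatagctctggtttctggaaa
Ifit1: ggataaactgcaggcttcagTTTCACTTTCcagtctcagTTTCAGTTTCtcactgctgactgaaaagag
Ifit3: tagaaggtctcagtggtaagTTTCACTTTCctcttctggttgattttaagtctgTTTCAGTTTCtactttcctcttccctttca
Ifit3b: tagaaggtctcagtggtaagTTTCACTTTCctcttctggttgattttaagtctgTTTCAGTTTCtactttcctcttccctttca
Oas1a: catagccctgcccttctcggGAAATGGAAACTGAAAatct
Oas1g: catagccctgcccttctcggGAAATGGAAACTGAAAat
Bst2: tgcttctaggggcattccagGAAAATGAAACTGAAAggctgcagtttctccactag
Rsad2: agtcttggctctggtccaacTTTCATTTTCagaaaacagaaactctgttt

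The Isg15 stretch (chr4:156200855-156200916, minus strand) held 3 overlapping matches, the first of them 78 bases before the start site. Those of Ifit1 (chr19:34640765-34640833, plus strand), Ifit3 (chr19:34583353-34583436, plus strand) and Ifit3b (chr19:34607749-34607832, plus strand) each held 2 separate matches. The Ifit3 and Ifit3b stretches had the same letters throughout, and their upstream windows were identical at 86.2% of 218 aligned bases. Oas1a (chr5:120907526-120907565, minus strand) and Oas1g (chr5:120887614-120887651, minus strand) shared their matches too, with 63.7% identity over 248 aligned bases. Bst2 (chr8:71537567-71537622, minus strand) held 2 overlapping matches and Rsad2 (chr12:26456543-26456592, minus strand) held 1.

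Of the other motifs searched on both strands, the STAT-binding GAS letters (TTCNNNGAA) were in 17% of the members' windows and 8.3% of all windows. The AP-1 letters (TGANTCA) were in 17% and 7.81%. The loose NF-kB letters (GGG, any 5 bases and CC, or the complement) were in 59.6% and 50.8%. Letters in a window are a description of sequence and not evidence that a factor binds. The 19 genes with ISRE letters had a median LPS difference of 2.40 log2 units in WT, and the 18 genes whose window lacked them had 2.24. The genes without these letters in their window included Cmpk2 and Oasl1, which had differences of 5.08 and 4.77.

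Many of the genes lie side by side on GRCm38. Ifit2, Ifit3, Ifit3b and Ifit1 form a run on chromosome 19 from 34550694 to 34650009. On chromosome 5 lie Oasl2 with Oasl1, Oas2 with Oas3, and Oas1g with Oas1a. Rsad2 and Cmpk2 on chromosome 12 are 12.8 kb apart and point away from each other. Parp14, Dtx3l and Parp9 are neighbours on chromosome 16, where Dtx3l and Parp9 overlap at their ends on opposite strands, so reads could be shared between them. Reads of the related copies Ifit3 and Ifit3b, Oas1a and Oas1g, and Ifi204 and Ifi205 could also have been split, because how such reads were counted was not given in the sources used here.

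Values are rlog values, a log2 scale of expression that draws genes with few reads toward their mean and is not corrected for gene length, so levels are not compared between genes. A difference of 1 is a doubling for well-read genes. Read depth is unknown. Paxip1 itself was at rlog 4.50 in both WT samples at 0 h and 2.54 and 2.48 in cKO at 0 h. After LPS it was at 3.82 and 4.08 in WT and 2.54 and 2.63 in cKO. The cKO samples were lower at both times, with a difference of -1.99 log2 units at 0 h (SE 0.18, limma adjusted p = 0.00686) and -1.36 after LPS (SE 0.18, limma adjusted p = 0.0156). The authors' deposited table, on a scale other than rlog, had log2 fold changes of -4.75 at 0 h (adjusted p = 0.00196) and -4.04 after LPS. The latter was not called there.

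All 8 macrophage markers listed were detected in every sample. Their summed level (log2 of the summed linear values) was 19.24 to 19.53 in the 4 WT samples and 18.42 to 18.73 in the 4 cKO samples, with lysozyme (Lyz2) alone at 19.0 to 19.31 and 18.13 to 18.46. Itgam (-1.11) and Mertk (-1.10) were the 2 of 8 markers called lower in cKO after LPS. Of the 7 markers of plasmacytoid dendritic cells, which are known for high interferon output, 4 had a mean of at least 3. These were Tcf4, a transcription factor, at 8.87 to 10.91, and Cox6a2, Ccr9 and Spib at means of 4.19, 4.16 and 3.09. Ly6d was at 1.13 to 1.93, Siglech at -2.17 to -2.14, and Klk1 at or near -2.31, the lowest value in the table. The summed neutrophil list was 6.84 to 8.14 in WT and 7.95 to 8.77 in cKO, mostly from S100a8. No marker of T or NK cells, stromal cells or erythroid cells reached a mean of 3, and Hbb-bt was listed at 0. The part of these differences in the results below was not tested.

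The 2 samples of cKO at 0 h differed in these genes more than those of the other groups. Replicate 2 was higher than replicate 1 in 47 of 49 genes, with a median difference of 0.60, while over all tested genes the median was 0.00 and 50.1% were higher. The median over the 49 genes was -0.09 in WT at 0 h, -0.21 in WT after LPS and 0.02 in cKO after LPS. The greatest gap was that of Ifit3b, at 9.42 and 11.04. Isg15 (9.96 and 11.43), Ifit3 (11.89 and 13.28), Ifit2 (11.24 and 12.57) and Mx1 (7.49 and 8.80) were also more than 1 log2 unit apart. The exceptions were Ifi27, at 9.36 and 8.38, and Ifi205, at 7.15 and 7.14. The labels name no batch or other feature that separates these samples, and the reason for the gap was not tested.

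**Figure D1:**
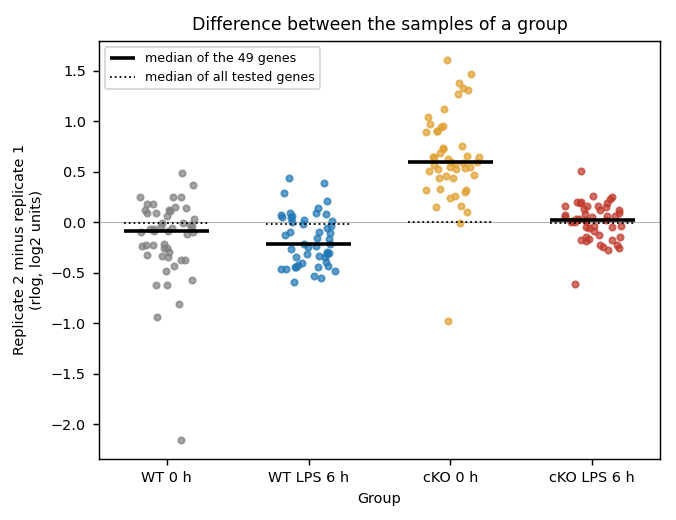
Replicate 2 minus replicate 1 in rlog (log2) units for each of the 49 genes (points) in the 4 groups, with the median of the 49 genes (solid line) and of all tested genes (dotted line); points are spread sideways only to be seen. In cKO at 0 h the median of the 49 genes is 0.60, and in the other groups it is between -0.21 and 0.02.

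LPS raised the antiviral genes almost without exception. In WT, 48 of 49 were higher after LPS at an adjusted p under 0.05 (limma, Benjamini-Hochberg over all tested genes), where 22.5% of all tested genes were called higher and 19.7% lower. None of the 49 was called lower. Their median difference was 2.25 log2 units, beside -0.01 over all tested genes. In cKO, 48 of 49 were again called higher, where 19.6% of all tested genes were called higher and 17.5% lower, with a median of 1.97 beside -0.02. Without replicate 1 of cKO at 0 h the cKO count was 45 and the median 1.67, and without replicate 2 they were 47 and 2.27. In the same 48 genes both LPS samples lay above both 0 h samples in each genotype, against 35.7% of all tested genes in WT and 35.6% in cKO. In the authors' deposited table, 48 of 49 were likewise higher in each genotype, where it called 16.1% of the tested genes higher in WT and 15.9% in cKO. The gene not called was Ifi27 in both genotypes, in limma and in the authors' deposited table. Without replicate 1 of cKO at 0 h, Rtp4, Ifitm3 and Lgals3bp were not called in cKO either, and without replicate 2 Lgals3bp was not.

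Some markers of other cell types moved with LPS in the same samples. The summed level of the plasmacytoid dendritic cell markers was 9.05 to 9.49 in WT and 9.32 to 9.68 in cKO at 0 h, and 10.94 in both WT samples and 10.72 to 10.80 in cKO after LPS. This sum came mostly from Tcf4, which alone was at 10.91 and 10.89 in WT and 10.67 and 10.74 in cKO after LPS. Tcf4 rose by 1.77 in WT and 1.29 in cKO, and Ccr9 by 1.10 in cKO, while the defining marker Siglech was at the values above. Spib and Cox6a2 were lower on average after LPS in WT and higher in cKO, with LPS and 0 h samples that overlapped in both genotypes. The summed conventional dendritic cell markers were at 5.05 to 5.28 in WT and 5.24 to 5.25 in cKO at 0 h, and at 5.53 to 5.97 and 5.29 to 5.61 after LPS. Of these 5 markers, Xcr1 (1.15 and 0.90) and Zbtb46 (0.90 and 0.81) rose in both genotypes. Clec9a lay lower after LPS in both. It went from 3.37 and 3.90 to 3.36 and 3.23 in WT, and from 4.37 and 3.77 to 3.71 and 2.67 in cKO. Flt3 and Cd209a had means below 3. The summed neutrophil markers were at 6.84 to 7.43 in WT and 7.95 to 8.04 in cKO at 0 h, and at 7.59 to 8.14 and 8.54 to 8.77 after LPS. Of these 8, Camp rose in both genotypes (1.19 and 1.84) and S100a8 in WT (0.65), while Ly6g was at -2.03 to -1.98. Of 4 B cell markers, Cd79b fell by 1.39 in WT and by 1.29 in cKO. The macrophage markers Mertk (2.36 and 1.35), Fcgr1 (1.86 and 1.69) and Cd14 (1.14 and 1.55) rose as well. The part of these changes in the rise of the antiviral genes was not tested.

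The size of the rise varied widely between the genes. In WT, 7 genes differed by at least 4 log2 units, 23 by 2 to 4, 16 by 1 to 2 and 3 by less than 1. In cKO the same bands held 6, 18, 21 and 4 genes. The heat map of the 49 genes shows these sizes sample by sample.

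**Figure D2:**
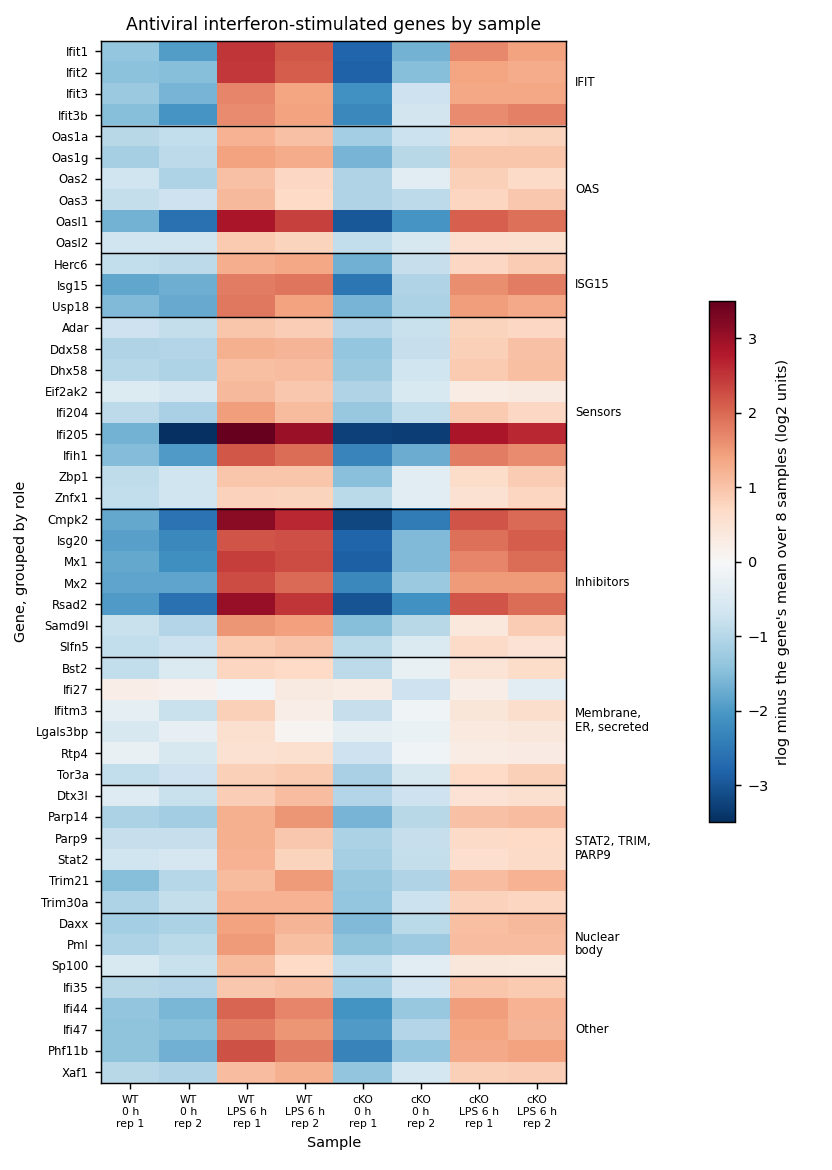
Heat map of the 49 genes (rows, grouped by role) in the 8 samples (columns), coloured by rlog minus the gene's mean over the 8 samples in log2 units. The 4 LPS columns are red and the 4 columns at 0 h are blue for all genes but Ifi27, and replicate 1 of cKO at 0 h is a deeper blue than replicate 2 in 47 of 49 genes.

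The IFIT proteins bind viral RNA that lacks the host's cap methylation. All 4 rose in both genotypes, with a median of 3.54 in WT and 3.33 in cKO. Ifit1, the member that binds such RNA directly, was at 12.17 and 11.55 (WT) against 10.74 and 11.85 (cKO) at 0 h, and at 16.02 and 15.70 (WT) against 15.19 and 14.92 (cKO) with LPS. All LPS samples lay above all 0 h samples, and after LPS both cKO samples lay below both WT samples. The rise was 4.0 in WT (SE 0.35, limma adjusted p = 6.34e-05) and 3.76 in cKO (SE 0.35, adjusted p = 0.000118). Ifit3, which stabilises IFIT1 complexes, had the smallest rise of the 4, at 3.01 (SE 0.38, limma adjusted p = 0.000399) and 2.78 (adjusted p = 0.000799). Ifit3 was at 12.71 and 12.39 (WT) against 11.89 and 13.28 (cKO) at 0 h, and at 15.73 and 15.39 (WT) against 15.36 and 15.37 (cKO) with LPS. At 0 h its 2 cKO samples stood on either side of WT.

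OAS enzymes make short oligoadenylates from ATP when they meet double-stranded RNA, which switches on RNase L. All 6 genes of this family rose in both genotypes, with a median of 1.89 in WT and 1.79 in cKO, and 1 gene stood apart from the others in size. Oasl1, a family member that lacks the enzyme activity, was at 9.23 and 8.29 (WT) against 7.93 and 8.83 (cKO) at 0 h, and at 13.76 and 13.29 (WT) against 12.99 and 12.82 (cKO) with LPS. It rose by 4.77 in WT (SE 0.35, limma adjusted p = 2.99e-05) and by 4.52 in cKO (SE 0.35). Oasl2, its neighbour on chromosome 5, had the smallest rise, 1.55 in WT (SE 0.15, adjusted p = 8.5e-05 by limma) and 1.28 in cKO (SE 0.15), or 0.83 and 0.78 after quantile normalization. The other 4 members rose by 1.70 (Oas3) to 2.40 (Oas1g) in WT and by 1.48 (Oas2) to 2.26 (Oas1g) in cKO.

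ISG15 is a ubiquitin-like protein that is attached to other proteins during infection. Herc6 is its main ligase in the mouse, and Usp18 removes it and also dampens the interferon receptor. Isg15 was at 10.69 and 10.78 (WT) against 9.96 and 11.43 (cKO) at 0 h, and at 14.30 and 14.38 (WT) against 14.13 and 14.30 (cKO) with LPS. It rose by 3.60 in WT (SE 0.38, limma adjusted p = 0.000152) and 3.52 in cKO (SE 0.38). Usp18 was at 11.53 and 11.32 (WT) against 11.44 and 11.98 (cKO) at 0 h, and at 14.91 and 14.48 (WT) against 14.55 and 14.41 (cKO) with LPS, and rose by 3.27 in WT and 2.77 in cKO (SE 0.22 for each). Herc6 rose by 2.20 in WT and 2.06 in cKO (SE 0.25 for each). For Isg15 the spread between the cKO samples at 0 h, 9.96 and 11.43, was wider than the difference between genotype means at either time, -0.04 and -0.13.

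All 9 genes of nucleic acid sensors and double-stranded RNA binding proteins rose in both genotypes, with a median of 2.11 in WT and 1.90 in cKO. The greatest rise of all 49 genes was that of Ifi205, a DNA-binding protein of the PYHIN family, which was at 8.78 and 6.63 (WT) against 7.15 and 7.14 (cKO) at 0 h, and at 13.94 and 13.46 (WT) against 13.28 and 13.06 (cKO) with LPS. Its rise was 5.99 in WT and 6.03 in cKO (SE 0.55 for each, limma adjusted p = 7.7e-05 and 0.000106). In WT at 0 h, replicate 2 minus replicate 1 was -2.15, the widest gap between samples of a group among the 49 genes. Of the cytosolic RNA helicases, Ifih1 (MDA5) rose by 3.81 in WT and 3.74 in cKO, Ddx58 (RIG-I) by 2.25 and 2.01, and their regulator Dhx58 (LGP2) by 2.11 and 1.97. Eif2ak2 (PKR), the kinase that shuts down translation on double-stranded RNA, had the smallest rise of the group in both genotypes. It was at 8.70 and 8.60 (WT) against 8.12 and 8.65 (cKO) at 0 h, and at 10.31 and 10.11 (WT) against 9.45 and 9.50 (cKO) with LPS. The rise was 1.56 in WT (SE 0.18, limma adjusted p = 0.000233) and 1.09 in cKO (SE 0.18, limma adjusted p = 0.0019). The RNA-editing enzyme gene Adar rose by 1.71 and 1.64, the Z-nucleic acid sensor Zbp1 by 1.76 and 1.69, and the helicase gene Znfx1 by 1.58 and 1.32.

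The 7 inhibitors of virus replication and translation had the highest median rise of the groups, 4.30 in WT and 4.01 in cKO, and all 7 rose in both. Rsad2 (viperin), which makes a chain-terminating nucleotide, was at 10.80 and 10.18 (WT) against 9.77 and 10.67 (cKO) at 0 h, and at 15.83 and 15.28 (WT) against 14.99 and 14.75 (cKO) with LPS. Cmpk2, a mitochondrial nucleotide kinase whose gene is the neighbour of Rsad2, was at 10.83 and 10.02 (WT) against 9.44 and 10.17 (cKO) at 0 h, and at 15.77 and 15.25 (WT) against 14.82 and 14.60 (cKO) with LPS. In both genes, all LPS samples lay above all 0 h samples and both cKO samples after LPS lay below both WT samples. The rise of Cmpk2 was 5.08 in WT (SE 0.32, limma adjusted p = 1.67e-05) and 4.90 in cKO, and that of Rsad2 was 5.07 (SE 0.33) and 4.65. Isg20, an exonuclease gene, rose by 4.30 and 4.18. The transcripts of the dynamin-like GTPases Mx1 (4.30 and 4.01) and Mx2 (3.96 and 3.28) rose as well, although C57BL/6 mice are known to make no working MX1 protein and the annotation lists Mx2 as a polymorphic pseudogene. Slfn5 had the smallest rise of the group, 1.76 in WT (SE 0.16, limma adjusted p = 6.99e-05) and 1.31 in cKO.

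The 6 genes of membrane, endoplasmic reticulum and secreted proteins moved least, with a median difference of 1.02 in WT and 0.83 in cKO, and 5 of the 6 rose in each. Ifi27, a small interferon-inducible membrane protein, was at 9.33 and 9.25 (WT) against 9.36 and 8.38 (cKO) at 0 h, and at 9.0 and 9.43 (WT) against 9.35 and 8.74 (cKO) with LPS. Its LPS and 0 h samples overlapped in both genotypes. The difference was -0.08 in WT (SE 0.32, limma adjusted p = 0.868) and 0.17 in cKO (SE 0.32, limma adjusted p = 0.716), and its sign changed when single samples were left out. Tor3a, an ATPase of the endoplasmic reticulum, had the largest rise, 1.67 and 1.61. Bst2 (tetherin), which holds budding virus particles at the cell surface, rose by 1.42 and 1.15. After quantile normalization the group's median was 0.27 in WT and 0.36 in cKO, Tor3a was at 0.88 and 1.10, and Bst2 was at 0.74 and 0.71.

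The calls of 3 members of this group rest on the settings. Ifitm3, which blocks the fusion of viruses with endosomes, was at 13.30 and 12.87 (WT) against 12.83 and 13.52 (cKO) at 0 h, and at 14.47 and 13.88 (WT) against 14.06 and 14.25 (cKO) with LPS. It rose by 1.09 in WT (SE 0.28, limma adjusted p = 0.0143) and 0.97 in cKO (SE 0.28, limma adjusted p = 0.0264). Rtp4 rose by 0.95 and 0.69, and Lgals3bp, a secreted glycoprotein, by 0.75 and 0.67. After quantile normalization none of the 3 was called in either genotype, which left 45 of 49 genes called in each. In cKO the 3 calls were also lost without replicate 1 at 0 h (Ifitm3 then at 0.63 and Rtp4 at 0.38) or without either LPS sample. In WT, Lgals3bp (0.52) and Ifitm3 (0.80) were lost without replicate 1 after LPS.

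STAT2, the TRIM ubiquitin ligases and the PARP9 group act on signalling and on tagged proteins. All 6 genes rose in both genotypes, with a median of 2.03 in WT and 1.73 in cKO. Stat2, a subunit of the complex that binds the ISRE, was at 10.11 and 10.22 (WT) against 9.63 and 9.96 (cKO) at 0 h, and at 12.02 and 11.58 (WT) against 11.37 and 11.47 (cKO) with LPS. It rose by 1.64 in WT (SE 0.17, limma adjusted p = 0.000158) and 1.63 in cKO, and both cKO samples lay below both WT samples at each time. Parp14 had the greatest rise in WT, 2.56 (SE 0.21, limma adjusted p = 4.14e-05), and rose by 2.33 in cKO. Trim21, the cytosolic receptor of antibody-coated virus, rose by 2.55 and 2.35. Dtx3l, the ligase partner of PARP9, had the smallest rise of the 6, 1.58 and 1.42, and Parp9 rose by 1.90 and 1.63.

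Nuclear bodies formed by PML gather proteins that silence viral genomes, among them SP100 and the histone chaperone DAXX. All 3 genes rose in both genotypes. Pml was at 7.67 and 7.82 (WT) against 7.33 and 7.48 (cKO) at 0 h, and at 10.23 and 9.81 (WT) against 9.82 and 9.84 (cKO) with LPS, and rose by 2.28 in WT (SE 0.16, limma adjusted p = 2.37e-05) and 2.42 in cKO (SE 0.16). Daxx rose by 2.45 and 2.35, and Sp100 by 1.55 (SE 0.19) and 1.01 (SE 0.19), the latter pair being 0.98 and 0.56 after quantile normalization. Sp100 was at 10.97 and 10.74 (WT) against 10.66 and 11.13 (cKO) at 0 h, and at 12.61 and 12.21 (WT) against 11.92 and 11.88 (cKO) with LPS. The 5 other interferon-induced genes rose by 1.99 (Ifi35) to 3.57 (Phf11b) in WT and by 1.84 (Xaf1) to 3.22 (Phf11b) in cKO, with Ifi44 at 3.36 and 3.05 and the immunity-related GTPase gene Ifi47 at 3.12 and 2.79.

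**Figure D3:**
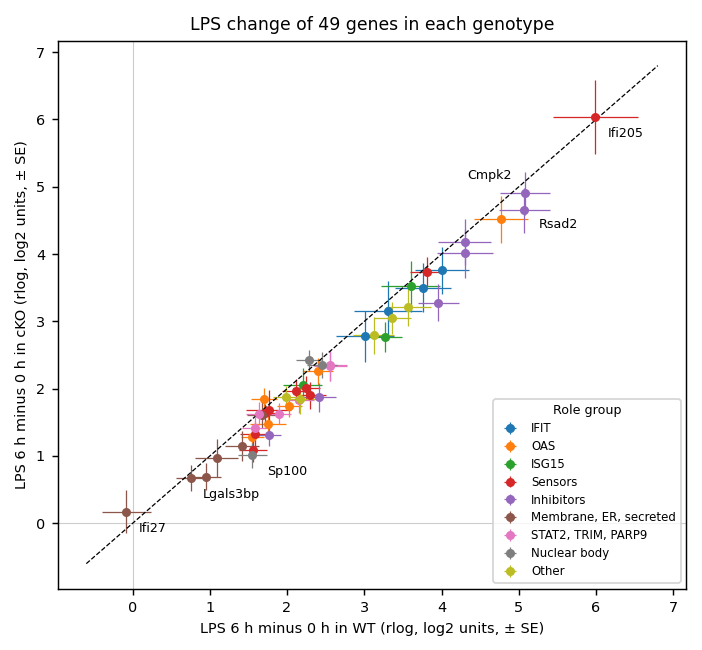
LPS difference of each of the 49 genes in WT (horizontal axis) and in cKO (vertical axis), in rlog (log2) units with the SE of the fit as bars, coloured by role group; the dashed line marks equal differences. Ifi205 lies at 5.99 and 6.03 and Ifi27 at -0.08 and 0.17, and 45 of 49 points lie below the line (23 of 49 after quantile normalization).

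The question whether the LPS rise itself differed between genotypes was tested as an interaction. None of the 49 genes was called (0 at an unadjusted p under 0.05), where limma called 0% of all tested genes and 6.51% were at an unadjusted p under 0.05. The gap between the cKO samples at 0 h enters the spread of this test. Its median size was 0.60 in the 49 genes and 0.19 over all tested genes. The counts of 0 therefore do not show that the rises were equal. The median interaction, the rise in cKO minus that in WT, was -0.24. Of the 49 genes 45 were below 0, where 5987 of all 11543 tested genes were. Among all tested genes with a mean rlog of 9 to 11, 11 to 13 and at least 13, 55.6%, 65.9% and 75% were below 0. After quantile normalization the median of the 49 was 0.01. Below 0, the smallest p belonged to Slfn5 (-0.45, SE 0.22, limma adjusted p = 0.764), Sp100 (-0.54, SE 0.27, limma adjusted p = 0.764) and Eif2ak2 (-0.47, SE 0.25, limma adjusted p = 0.776), and Mx2 had the lowest value (-0.68). Above 0 lay Ifi27 (0.25), Pml (0.15), Oas3 (0.14) and Ifi205 (0.03). The median was -0.59 without replicate 1 of cKO at 0 h and 0.07 without replicate 2 of that group.

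Before LPS, no difference between genotypes was called in these genes. Of the 49, 0 were called (nor were any at an unadjusted p under 0.05, 0 of 49), where limma called 0.251% of all tested genes and 10.9% had an unadjusted p below 0.05. The gap between the cKO samples at 0 h enters the spread here too, so these counts do not show that the genotypes were equal. At 0 h, 0 of the 49 were called in the authors' deposited table as well, where it called 1.52% of the tested genes. The median difference, cKO minus WT, was -0.10, with 34 of the 49 genes below 0, where 6020 of all 11543 tested genes were. Among all tested genes with a mean rlog of 9 to 11, 62.6% were below 0. The share was 66.7% at 11 to 13 and 61.7% at 13 or more. After quantile normalization the median of the 49 was -0.04 with 26 below 0. Both cKO samples lay below both WT samples in 4 genes, namely Ifit2, Oas3, Stat2 and Pml, against 21.9% of all tested genes. Of these, Stat2 differed by -0.37 (SE 0.17, limma adjusted p = 0.496) and Pml by -0.34 (SE 0.16, limma adjusted p = 0.495).

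Each cKO sample at 0 h gave a different picture. Over the 49 genes, replicate 1 lay at a median of -0.41 from the WT mean, beside -0.01 over all tested genes. Replicate 2 lay at a median of 0.19, again beside -0.01. The difference with the smallest p among genes above 0 was that of Usp18 (0.29, SE 0.22, limma adjusted p = 0.693). Ifit3b had the largest value above 0, 0.32, which became -0.49 without replicate 2 of cKO. Leaving out replicate 2 of WT at 0 h gave 1 call, Ifi205 (limma adjusted p = 0.0464, and 0.0464 to 0.969 over the alternatives), whose WT samples were 8.78 and 6.63.

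After LPS, the cKO samples mostly lay below the WT samples, by amounts that did not pass the test. Of the 49 genes, 0 were called and 11 had an unadjusted p under 0.05, where limma called 3.97% of all tested genes (174 higher and 284 lower) and 21.5% had an unadjusted p under 0.05. The share of 11 in 49 is close to that background in this fit. Its spread is pooled over the 4 groups, so the gap between the cKO samples at 0 h enters it. With only the 4 LPS samples fitted, 24 of the 49 had an unadjusted p under 0.05 by limma. After quantile normalization of all 8 samples, 3 did. The shares of all tested genes in those fits are not given here. In the fit over all 8 samples the median difference was -0.35, beside -0.03 over all tested genes. Of the 49 genes 47 were below 0, where 6228 of all 11543 tested genes were. After quantile normalization the median of the 49 was -0.06 with 29 below 0. That normalization also moved the calls over all tested genes to 115 higher and 120 lower. Both cKO samples lay below both WT samples in 39 genes and above them in 0, against 29.7% of all tested genes lying below.

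Genes with high values had lower medians in cKO in general. Among all tested genes with a mean rlog of 9 to 11 the median difference after LPS was -0.10. Among those of 11 to 13 it was -0.17, and among those of at least 13 it was -0.29. In these bands 63.6%, 73.8% and 81.2% of all tested genes were below 0. The antiviral genes in the same bands had medians of -0.38 (21 genes), -0.32 (19 genes) and -0.21 (6 genes). In the bands of 9 to 11 and 11 to 13 the medians of the antiviral genes were below those of all tested genes. In the highest band the median of the 6 antiviral genes was not. These 6 ranged from -0.96 (Ifit2) and -0.81 (Ifit1) to 0.05 (Lgals3bp). The macrophage markers Itgam and Mertk were lower in the same samples, as given above, and their part in these differences was not tested.

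The smallest p after LPS belonged to Eif2ak2 (PKR), with 10.31 and 10.11 in WT and 9.45 and 9.50 in cKO. The groups did not overlap, and the difference was -0.73 (SE 0.18, limma adjusted p = 0.061). Samd9l, an inhibitor of translation, followed with 11.90 and 11.79 in WT and 10.72 and 11.23 in cKO, a difference of -0.87 (SE 0.22, limma adjusted p = 0.0655). Parp9, a partner of Dtx3l, was next with 11.18 and 10.89 in WT and 10.60 and 10.63 in cKO, a difference of -0.42 (SE 0.15, limma adjusted p = 0.146). The greatest difference in size was that of Ifit2, 16.53 and 16.20 in WT and 15.45 and 15.36 in cKO, at -0.96 (SE 0.36, limma adjusted p = 0.172).

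By role, the inhibitors of virus replication had the lowest median after LPS, -0.62, and all 7 were below 0 (6 of 7 after quantile normalization, with a median of -0.22). All 6 genes of the STAT2, TRIM and PARP9 group were below 0 under both scalings, with medians of -0.40 and -0.18. All 9 sensors were below 0, with a median of -0.29, but 5 of 9 were after quantile normalization. All 6 OAS genes were below 0, with a median of -0.31, but only 3 of 6 after quantile normalization. The IFIT proteins split, with Ifit1 (-0.81) and Ifit2 (-0.96) below 0 under both scalings, Ifit3 at -0.20 (0.39 after quantile normalization) and Ifit3b at 0.17. The ISG15 system, at a median of -0.22, and the membrane, endoplasmic reticulum and secreted proteins, at -0.14, were at 0.17 and 0.23 after quantile normalization. Besides Ifit3b, Lgals3bp (0.05) was the gene above 0.

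**Figure D4:**
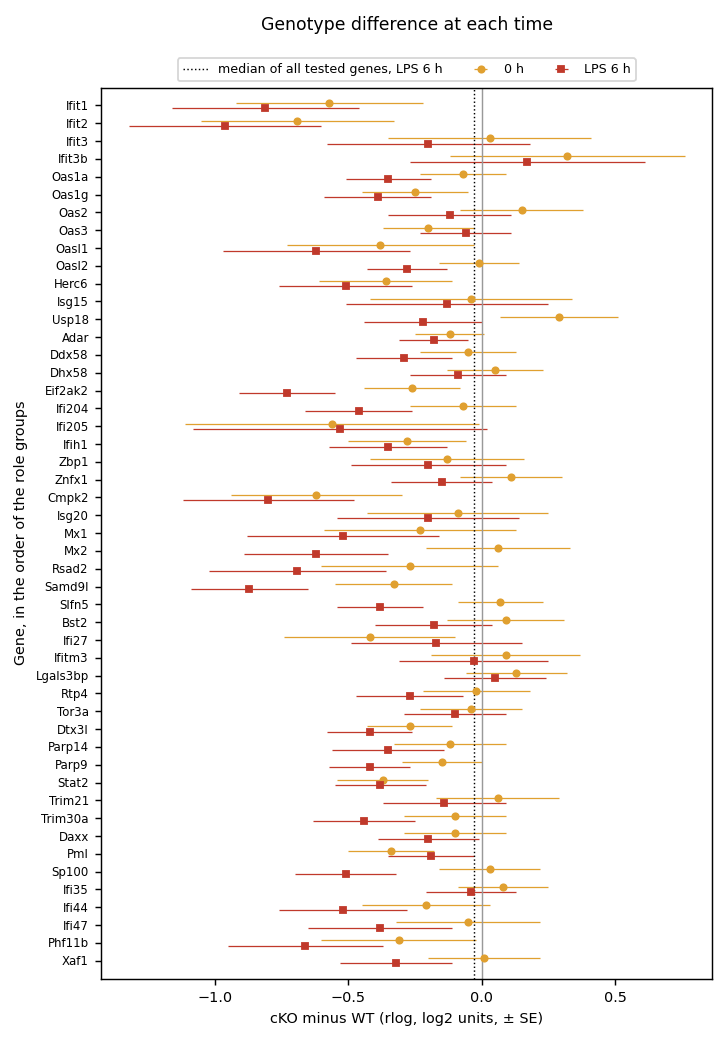
Difference between genotypes, cKO minus WT, for each of the 49 genes at 0 h (circles) and after LPS (squares), in rlog (log2) units with the SE of the fit as bars; the dotted line is the median of all tested genes after LPS, -0.03. After LPS 47 of 49 genes lie left of 0 (29 of 49 after quantile normalization), and none of the 49 passed the threshold at either time.

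The authors' deposited table, which rests on their own fit, called 6 of the 49 lower in cKO after LPS, where it called 3.02% of the tested genes lower. In the authors' deposited table these were Ifit2 (log2 fold change -0.98, adjusted p = 0.000199), Ifit1 (-0.82, 0.00592), Samd9l (-0.86, 0.00912), Cmpk2 (-0.82, 0.0122), Eif2ak2 (-0.76, 0.0184) and Phf11b (-0.67, 0.0455). Phf11b was at 13.40 and 12.97 in WT and 12.49 and 12.56 in cKO after LPS. The limma differences of these 6 genes were of like size, -0.96, -0.81, -0.87, -0.80, -0.73 and -0.66. Ifit2 was called in 3 of 16 limma alternatives (adjusted p = 0.0272 to 0.473), Samd9l in 3 (0.0432 to 0.283) and Eif2ak2 in 4 (0.0249 to 0.261). Ifit1, Cmpk2 and Phf11b were called in 0 of the 16. With only the 4 LPS samples fitted, Ifit2 and Eif2ak2 were called. That fit called 545 of all tested genes, against 458 in the main fit. Most of the other calls came when either sample of cKO at 0 h was left out.

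Of the 31 genes listed for the production of type I interferon and its signalling, 27 were tested; Ifnb1, Ifna1, Ifna2 and Ifna4 were below the filter. In WT 20 of the 27 rose and 1 fell after LPS, and in cKO 17 rose and 1 fell, where limma called 22.5% of all tested genes higher and 19.7% lower in WT, and 19.6% and 17.5% in cKO. In WT the greatest rises were those of Ifna5, an interferon-α gene (3.90 in WT and 3.65 in cKO), Irf1 (3.25 and 3.08) and Irf7, the amplifier of interferon-α production (2.65 and 2.64). In cKO Socs1, at 2.80, came before Irf7, and in WT it rose by 2.29. Ifna5 was at 1.48 to 1.92 in the samples at 0 h and at 4.69 to 6.01 after LPS. It passed the filter on low values only through its LPS samples, so its LPS call is not independent of that filter. Reads of Ifna5 may be shared with other genes of the interferon-α cluster. The gene that fell was Mavs, the mitochondrial adaptor of the RNA sensors, which fell by 1.29 in WT and by 0.44 in cKO on the log2 scale. The interaction for Mavs was 0.86 (SE 0.18, limma adjusted p = 0.643), and the fall in cKO was not called without any single cKO sample (-0.48 to -0.40). Irf9, of the ISRE-binding complex, rose by 0.48 and 0.41. After quantile normalization its differences were 0.10 and 0.12 and were not called. The authors' deposited table called Irf9 in neither genotype (adjusted p = 0.155 in WT and 0.0999 in cKO).

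Ifnb1 was at 1.54 and 1.60 (WT) against 1.52 and 1.85 (cKO) at 0 h, and at 4.24 and 3.29 (WT) against 2.94 and 2.47 (cKO) with LPS. Both LPS groups lay above 0 h, and after LPS both cKO samples lay below both WT samples. In the limma fit with no filter on low values the LPS difference was 2.19 in WT (SE 0.35, adjusted p = 0.0113) and 1.02 in cKO (SE 0.35, adjusted p = 0.15). The authors' deposited table, on a scale other than rlog, had log2 fold changes of 5.63 in WT (adjusted p = 4.64e-06) and 2.85 in cKO (adjusted p = 0.111). In the same limma fit the genotype difference after LPS was -1.06 (SE 0.35, adjusted p = 0.298) and the interaction -1.17 (SE 0.50, adjusted p = 0.849), so neither was called, and the authors' deposited table gave a genotype log2 fold change of -2.11 after LPS (adjusted p = 0.0638).

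Of the tested pathway genes, 3 passed the test between genotypes after LPS, and 0 did at 0 h, where 3.97% and 0.251% of all tested genes were called. Ifnar1, a chain of the interferon receptor, was at 10.28 and 9.90 (WT) against 9.24 and 8.97 (cKO) at 0 h, and at 10.70 and 10.50 (WT) against 9.53 and 9.55 (cKO) with LPS. Both cKO samples lay below both WT samples at each time, with a difference of -1.06 after LPS (SE 0.16, limma adjusted p = 0.0178, and 0.00638 to 0.158 over 16 alternatives) and -0.99 at 0 h (SE 0.16, limma adjusted p = 0.0707). Jak1 was at 11.35 and 11.18 in WT and 10.71 and 10.74 in cKO after LPS, a difference of -0.54 (SE 0.12, limma adjusted p = 0.0487), called in 3 of 16 alternatives. Socs1, an inhibitor of JAK kinases, was higher in cKO, at 8.35 and 8.55 in WT and 9.68 and 9.47 in cKO after LPS, a difference of 1.13 (SE 0.21, limma adjusted p = 0.0275, and 0.0138 to 0.167 over 16 alternatives). The authors' deposited table called Ifnar1 (log2 fold change -1.11, adjusted p = 4.72e-05) and Socs1 (1.31, 1.67e-05) but not Jak1 (-0.54, 0.13), and at 0 h it called Ifnar1 as well (-1.09, 0.0036). In limma, the Ifnar1 call was lost without replicate 1 of WT after LPS (-0.96) or either cKO sample after LPS (-1.05 and -1.07). The Socs1 call was lost without any single LPS sample (1.02 to 1.23). With no filter on low values, limma called neither Ifnar1 (adjusted p = 0.0751) nor Socs1 (adjusted p = 0.115). Without either cKO sample after LPS, 0 of all tested genes were called between genotypes after LPS. Irf7 (-0.08) and Irf9 (-0.08) were not called after LPS, and both were above 0 after quantile normalization.

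**Figure D5:**
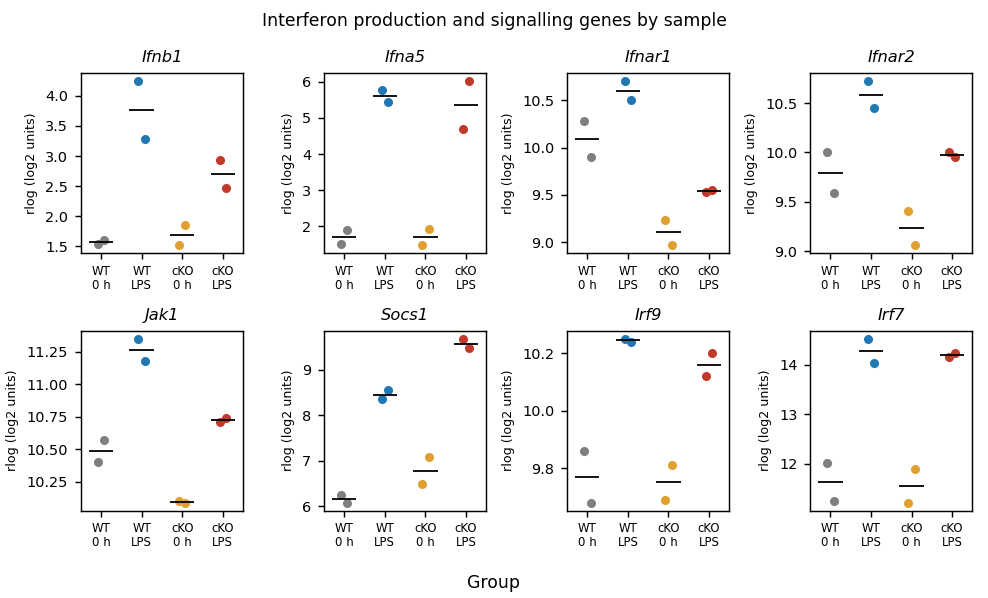
The rlog value (log2 units) of each sample (points) and the group mean (line) for 8 genes of interferon production and signalling in the 4 groups; each panel has its own vertical axis. Ifnar1 is at 8.97 to 9.55 in the cKO samples and 9.90 to 10.70 in the WT samples, and Socs1 after LPS is at 9.47 and 9.68 in cKO and 8.35 and 8.55 in WT.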

How the data were processed

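Poly(A) RNA of 8 BMDM samples was sequenced; per the labels' protocols, Trizol extraction was followed by oligo-dT selection, fragmentation, random-primed cDNA synthesis and 15 PCR cycles. Tools named in the submitters' processing notes are HISAT2 2.1.0, featureCounts, CASAVA and DESeq2, with GRCm38 as the genome. Annotation, strandedness and the handling of multi-mapping reads were not given in the sources used here, which leaves paralogs, overlapping genes and antisense genes uncertain. The authors deposited 1 table of rlog values, a regularised log2 scale. Per the file headers, log2 fold changes with raw and adjusted p-values from the authors' fit stand beside them for 4 comparisons. Read counts were not used here, so depth is unknown and differences of low genes are understated. Of the 55226 genes, 26727 were listed at 0 in every sample.

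The 11543 genes whose rlog averaged 3 or more were fitted with limma 3.58.1 in R 4.3.3, as 4 group means over all 8 samples with a variance trend (4 residual and 4.4 prior degrees of freedom). From this fit came 5 comparisons: the LPS difference of either genotype, the genotype difference at either time, and the interaction. They share samples. Benjamini-Hochberg adjustment covered all tested genes, and genes under 0.05 were called. The script was tested on simulated data. Gene positions came from GENCODE M21 (GRCm38) and promoter windows from RefSeq (GRCm38.p6). Mb21d1 was matched to Cgas by a RefSeq synonym.

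The members, role groups, pathway list, markers and motifs were chosen with earlier results of these data known. Named for LPS were the largest and smallest difference of each role group (all members in groups of 3) and every member not called. Named between genotypes and for the interaction were every called member and the 3 of smallest p in each direction. From the pathway list up to 3 rises and 3 falls per comparison were named, with Ifnb1, Irf7 and Irf9 always; a further gene of this rule and a marker gene are not reported here. Other genes named here were chosen after their values were seen. Alternatives tried were no filter, a mean of at least 5, no variance trend, robust variance estimates, quantile normalization, median centring, only the 4 samples compared, the replicate number as a block (also within genotype), leaving out each sample, and the authors' deposited table.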

Additional observations from a re-analysis of the deposited data

How the results depend on the processing

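Quantile normalization moved the members' median LPS difference to 1.71 in WT and 1.67 in cKO, the genotype difference after LPS to -0.06 and the interaction to 0.01. Leaving out each of the 8 samples in turn gave a median of 1.67 to 2.27 for LPS in cKO, -0.41 to 0.19 between genotypes at 0 h and -0.59 to 0.07 for the interaction. Members called between genotypes then numbered 0 to 1 at 0 h and 0 to 3 after LPS. After LPS they numbered 1 with median centring (Eif2ak2), 2 with only the 4 samples compared (Eif2ak2 and Ifit2) and 6 in the authors' deposited table.

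The replicate numbers are not tied to a mouse, and the correlation of replicate 2 minus replicate 1 between groups was -0.04 to 0.31 over 11543 genes. With the replicate number as a block, 1 member was called between genotypes after LPS (Samd9l, limma adjusted p = 0.0483), 0 were called at 0 h and 48 rose in each genotype. The block within genotype also gave 48 each. All tested genes called after LPS between genotypes numbered 458, 804 with the block and 208 with no filter. At 0 h they numbered 29, with 0 to 176 over the alternatives, and after LPS 0 to 804.

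Some named genes that were not called changed sign. The LPS difference of Ifi27 in cKO was 0 after quantile normalization. Without single samples it ranged from -0.29 to 0.14 in WT and from -0.32 to 0.66 in cKO (-0.14 without replicate 1 after LPS). After quantile normalization Irf7 and Irf9 were at 0.31 and 0.07 between genotypes after LPS and at 0.30 and 0.01 for the interaction, and at 0 h Irf7 was at 0.01 and Irf9 at 0.05. Without single samples, the difference at 0 h ranged from -0.46 to 0.31 for Irf7, -0.11 to 0.07 for Irf9 and -0.49 to 1.13 for Ifit3b. After LPS it ranged from -0.32 to 0.16 for Irf7 and -0.19 to 0.28 for Lgals3bp. The interaction ranged from -0.39 to 0.38 for Irf7, -0.15 to 0.03 for Irf9, -0.06 to 0.36 for Pml, -0.08 to 0.36 for Oas3 and -0.24 to 0.74 for Ifi27. The cause of these changes was not tested. Over the checks of named genes, 2595 values kept their direction and their side of the threshold, 75 lost a call, 24 gained a call and 26 changed sign. The depth of the libraries is unknown, so no counting error can be set beside a value, and the number of samples limits the precision.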

Other observations

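A few genes of interferon production and signalling had values that are not given above. Irf8, a transcription factor of the macrophage and dendritic cell lineages, was at 11.20 and 11.15 (WT) against 11.37 and 11.07 (cKO) at 0 h, and at 11.97 and 11.90 (WT) against 11.56 and 11.29 (cKO) with LPS. It rose by 0.76 in WT (SE 0.15, limma adjusted p = 0.00374), while the cKO difference was 0.21 (SE 0.15, limma adjusted p = 0.304) and the interaction was -0.55 (SE 0.21, limma adjusted p = 0.709), so the rises were not shown to differ. Cgas, the sensor of cytosolic DNA, was at 5.08 and 5.18 (WT) against 5.01 and 6.48 (cKO) at 0 h, so replicate 2 of cKO was high for this gene as for most of the antiviral genes. Tbk1, the kinase upstream of IRF3, lay lower in both cKO samples than in both WT samples at each time, with differences of -0.46 at 0 h (SE 0.12, limma adjusted p = 0.232) and -0.43 after LPS (SE 0.12, limma adjusted p = 0.0852). The second receptor chain, Ifnar2, did likewise, with -0.56 (SE 0.18, limma adjusted p = 0.318) and -0.61 (SE 0.18, limma adjusted p = 0.0964). Neither was called. These genes were chosen after their values were seen.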
